A study of Mus musculus with 61 samples.

Results

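The nuclear genes for the subunits of the mitochondrial respiratory chain were followed in RNA sequencing libraries of sorted mouse retinal cells. Members were chosen by gene symbol alone. They are the genes whose symbol begins with Ndufa, Ndufb, Ndufc, Ndufs, Ndufv, Uqcr, Cox4i, Cox5, Cox6, Cox7, Cox8 or Atp5, together with Sdha, Sdhb, Sdhc, Sdhd and Cyc1, without the Ndufaf assembly factors and pseudogenes. The table held 80 such genes among 15149. Of these, 35 were assigned to complex I, 4 to complex II, 9 to complex III, 15 to complex IV and 15 to complex V. Ndufa4 and Ndufa4l2 were placed in complex IV, where the Ndufa4 protein sits, and Atp5s and Atp5sl were kept apart as assembly or coupling factors. Reads were found in every library for 79 of the 80 members, and in 54 libraries for Ndufa4l2.

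The study compared DBA/2J mice, which carry mutations of Gpnmb and Tyrp1 and develop pigment-derived high eye pressure and glaucoma with age, with D2-Gpnmb+ mice of the same background that keep a working Gpnmb gene. There were 7 libraries of 9-month DBA/2J mice given nicotinamide, a precursor of NAD, at 500 mg per kg body weight per day. The groups on water were 9-month DBA/2J with 25 libraries, 9-month D2-Gpnmb+ with 9, 4-month DBA/2J with 10 and 4-month D2-Gpnmb+ with 10. Cells labelled retinal ganglion cells were sorted by Thy1.2, leaving out cells with GFAP, Cd45.2, Cd34, Cd11c or Cd11b. Every retina came from an eye without axon loss in the optic nerve by dye staining, so the 9-month DBA/2J groups stand for a stage before glaucomatous damage. Whether each library is a separate animal is not stated in the labels, and p-values therefore describe spread among libraries, which may be technical.

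The respiratory chain passes electrons from NADH (complex I) and succinate (complex II) through ubiquinone to complex III, and from there by cytochrome c to complex IV, where oxygen is reduced. Complexes I, III and IV pump protons, and complex V, the ATP synthase, uses the gradient to make ATP. Complex II is wholly encoded in the nucleus, while the other complexes combine nuclear subunits with a few encoded in mitochondrial DNA. Retinal ganglion cells depend on this pathway, and mutations of mitochondrial complex I genes cause Leber hereditary optic neuropathy, in which these cells die.

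Promoters of respiratory chain genes are known for binding sites of the transcription factors NRF1, GABPA (an ETS factor) and YY1, and the promoters of 4 members from complexes II to V are shown because they hold such motifs and belong to genes described below. RefSeq windows on GRCm38.p6, from 250 bases before to 50 after the gene start, matched 66 of the 80 members with 72 windows. The letters CCGGAAG (ETS) and ATGGCGG (YY1), and for NRF1 the letters GCGC and TGCGC with any 1 base between them, were searched on both strands. NRF1 letters were in 23.6% of the member windows and in 4.603% of all 32851 windows of the same length, ETS letters in 22.2% and 8.86%, and YY1 letters in 18.1% and 4.05%. At least 1 of the 3 was in 54.2% of the member windows and in 15.5% of all windows. A match describes the letters only. Each line is written 5′ to 3′ on the strand of the gene, with the matches on either strand in capitals. The windows lie at chr13:74350191-74350490 (Sdha, minus strand), chr9:108936398-108936697 (Uqcrc1, plus strand), chr7:30626065-30626364 (Cox6b1, minus strand) and chr10:128083057-128083356 (Atp5b, plus strand). Sdha held 3 NRF1 matches, Uqcrc1 held 2, Cox6b1 held 1 ETS match and Atp5b held 1 YY1 match.
Sdha: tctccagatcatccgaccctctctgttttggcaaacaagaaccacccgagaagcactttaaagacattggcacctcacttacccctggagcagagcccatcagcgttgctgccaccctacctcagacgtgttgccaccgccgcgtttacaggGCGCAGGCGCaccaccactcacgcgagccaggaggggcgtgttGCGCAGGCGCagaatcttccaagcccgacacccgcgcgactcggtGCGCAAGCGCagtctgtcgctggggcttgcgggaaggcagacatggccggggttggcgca
Uqcrc1: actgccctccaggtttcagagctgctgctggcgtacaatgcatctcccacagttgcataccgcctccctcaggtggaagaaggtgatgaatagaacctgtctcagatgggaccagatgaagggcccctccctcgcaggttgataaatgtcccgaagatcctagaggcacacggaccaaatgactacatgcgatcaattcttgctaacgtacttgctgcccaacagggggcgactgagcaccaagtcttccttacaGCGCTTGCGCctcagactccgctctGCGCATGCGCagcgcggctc
Cox6b1: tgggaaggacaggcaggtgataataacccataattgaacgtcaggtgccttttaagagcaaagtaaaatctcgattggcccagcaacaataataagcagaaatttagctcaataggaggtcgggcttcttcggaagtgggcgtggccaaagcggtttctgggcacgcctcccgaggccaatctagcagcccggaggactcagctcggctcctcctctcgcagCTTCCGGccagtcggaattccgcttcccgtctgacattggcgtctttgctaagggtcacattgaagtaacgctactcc
Atp5b: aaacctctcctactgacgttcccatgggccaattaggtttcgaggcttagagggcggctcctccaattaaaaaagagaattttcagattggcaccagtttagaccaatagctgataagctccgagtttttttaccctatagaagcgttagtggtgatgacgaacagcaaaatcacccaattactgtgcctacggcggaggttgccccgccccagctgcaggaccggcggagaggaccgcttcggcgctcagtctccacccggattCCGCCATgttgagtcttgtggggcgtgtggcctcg

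Reads per library, recovered from the deposited values, ran from 5133114 to 19501444 with a median of 9730486. Defining ganglion cell genes were low for a ganglion cell sort. Over the 61 libraries the medians were 23.9 normalised reads for Thy1 and 10.1 for Rbpms, but 0.334 for Pou4f1 and 0.128 for Slc17a6, while the rod gene Gnat1 had 2005. By group, the median of Gnat1 ran from 1486 to 2464. That of the bipolar cell gene Prkca ran from 1983 to 2998. That of the Müller glia gene Glul ran from 636 to 1529. The marker lists of these cells also hold genes with much lower values. Pou4f2, Pou4f3 and Isl2 were not analysed here. The columns of the table fall into 3 blocks of 10, 18 and 33, and what they stand for is not given in the labels. Their group counts equal those of 3 series of sample numbers, and the division was made after expression values were looked at. Of the untreated 9-month libraries, block 1 has 6 DBA/2J and 4 D2-Gpnmb+, block 2 has 16 DBA/2J and 2 D2-Gpnmb+, and block 3 has 3 DBA/2J and 3 D2-Gpnmb+ beside all nicotinamide and 4-month libraries. The 4-month and nicotinamide libraries can therefore be set against 9-month libraries of the same block in block 3 only, and block 3 values are given beside the results.

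By level per kilobase of annotated exon over all libraries, Atp5b, the catalytic beta subunit of complex V, was the highest member with 519, followed by the complex IV genes Cox8a with 108, Cox6a1 with 97.7 and Ndufa4 with 96.5. At the low end stood Ndufa4l2 with 1.39, Ndufb2 with 1.60 and Ndufab1 with 2.61. Because these lengths join all annotated exons of a gene, genes with long rare transcripts are placed too low. Members near each other in this order were not tested against each other. Together the members took 0.374% ± 0.0333 of all reads in nicotinamide-treated 9-month DBA/2J libraries (SD, n = 7). On water the share was 0.401% ± 0.0796 in 9-month DBA/2J (SD, n = 25) and 0.336% ± 0.0792 in 9-month D2-Gpnmb+ (SD, n = 9). In 4-month mice it was 0.356% ± 0.0528 in DBA/2J and 0.294% ± 0.0890 in D2-Gpnmb+ (SD, n = 10 each). All 5 ranges overlapped.

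The level of a library was summarised as the median over members of log2(value + 1). It ran from 4.38 over a median of 4.46 to 4.72 in nicotinamide-treated 9-month DBA/2J libraries. In 9-month DBA/2J libraries on water it ran from 4.13 over 4.77 to 5.65, and in 9-month D2-Gpnmb+ libraries from 3.72 over 4.44 to 4.63. In the 4-month libraries it ran from 4.13 over 4.43 to 4.68 in DBA/2J and from 4.26 over 4.49 to 4.64 in D2-Gpnmb+. Every library above the highest treated one was an untreated 9-month DBA/2J library of block 2. Within that group the mean was 5.06 in block 2 (n = 16), 4.28 in block 1 (n = 6) and 4.58 in block 3 (n = 3), and these block means lie farther apart than the means of the 5 groups, which ran from 4.34 to 4.81. The plot of levels by complex shows the same order of blocks in complexes I, II, IV and V, whereas in complex III the block 3 libraries averaged 4.26, below the 4.38 of block 1.

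**Figure D1:**
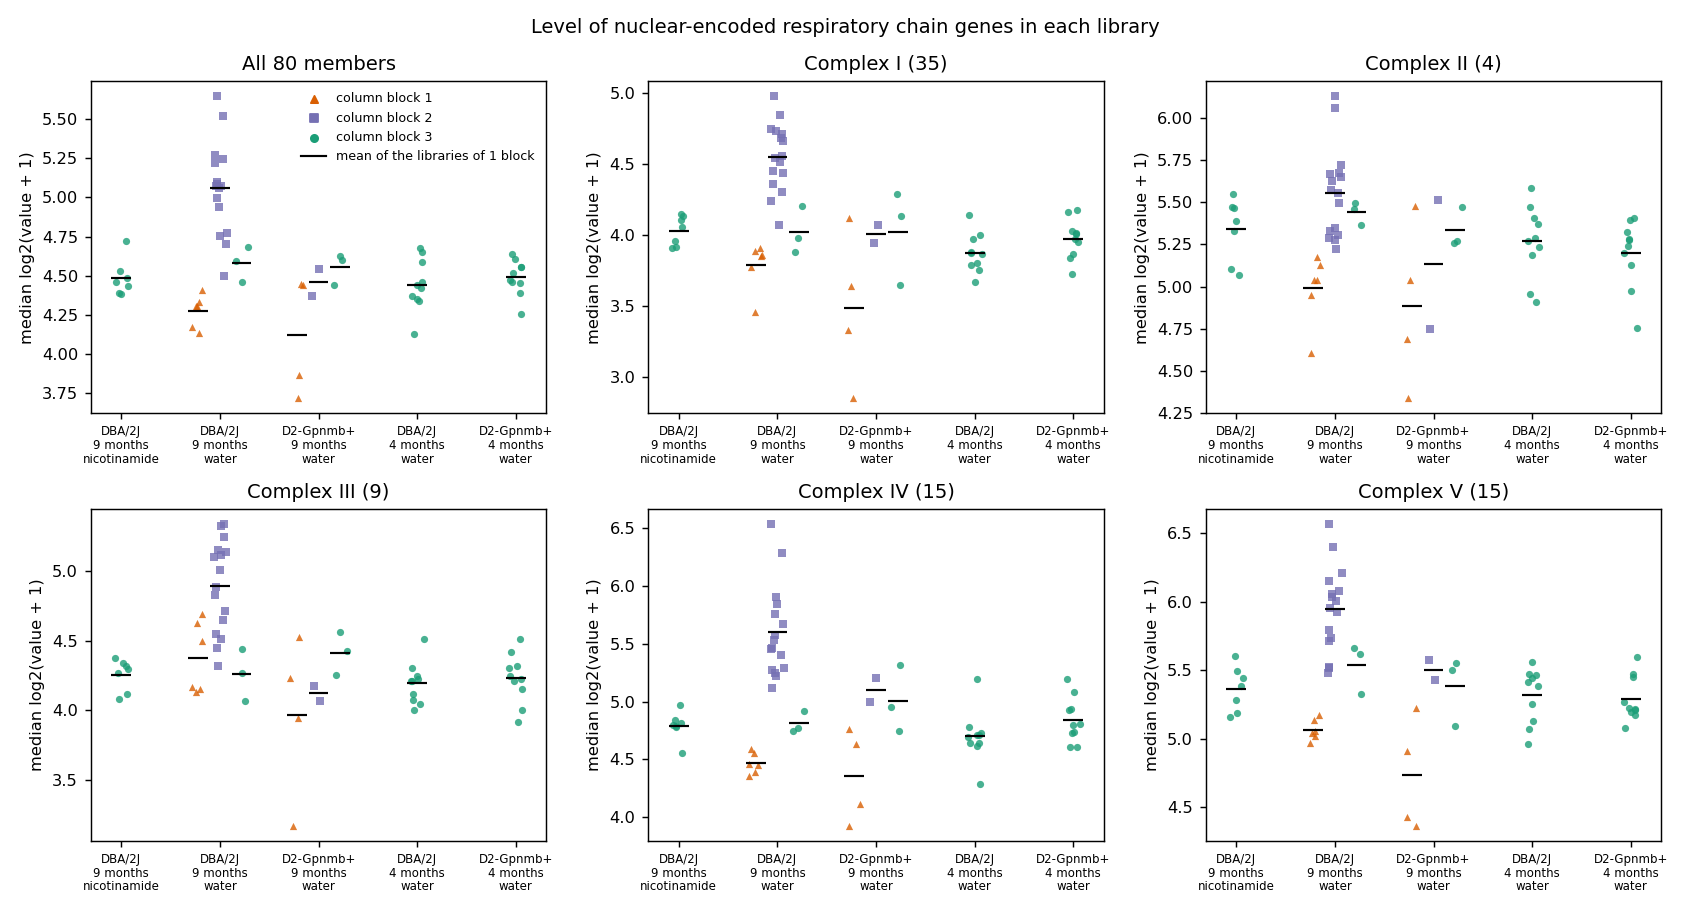
Each point is 1 library and each panel a complex, with the median over its members of log2(value + 1) on the y axis, the 5 groups on the x axis, colours and symbols for the column block and bars for block means. In 9-month DBA/2J on water the block 2 libraries average 5.06 over all members, above the 4.28 of block 1 and the 4.58 of block 3.

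In 9-month DBA/2J on water, microglia and macrophage markers were highest in block 2, while markers of other cells differed between blocks in other ways. The 12 microglia and macrophage markers summed to 2.31 to 4.02 with nicotinamide, where 6 had a median of 0. They summed to between 10.1 and 354.2 in block 2 of untreated 9-month DBA/2J, against 2.30 to 6.80 in block 1 and 1.72 to 6.40 in block 3 of the same group, although the sort was negative for Cd11b and Cd45.2. None of the 12 had a median of 0 in block 2, while 8 did in block 1 and 6 in block 3. In block 2 of 9-month D2-Gpnmb+ the sums were 12.0 and 15.5. Across libraries the median member level had a Spearman correlation of 0.70 with the median of these markers over all 61, 0.45 over the 18 of block 2 and 0.24 over the 33 of block 3. These points share the library and its depth, and the correlation with recovered reads was 0.51, 0.54 and 0.22. With the median of the 10 cone markers it was -0.47, -0.47 and -0.27, with the 12 amacrine and horizontal cell markers -0.11, -0.46 and -0.28, with the 13 Müller glia and astrocyte markers -0.04, -0.07 and 0.02, and with the share of ribosomal RNA in the reads 0.43, 0.48 and -0.04. With the median of the 12 bipolar cell markers the correlation was 0.31, 0.14 and 0.09. With the 17 rod markers it was 0.16, 0.40 and -0.33, and with the 10 endothelium, pericyte and muscle markers -0.27, 0.22 and 0.22. Over the 10 libraries of block 1 it was 0.25 for cone, 0.32 for amacrine and horizontal cell and 0.32 for bipolar cell markers. There it was 0.25 for rod, 0.19 for Müller glia and astrocyte and 0.81 for endothelium, pericyte and muscle markers. Cone markers summed to 1839 to 3018 with nicotinamide, against 667.3 to 2246 in block 2 and 1391 to 2410 in block 3 of untreated 9-month DBA/2J. Amacrine and horizontal cell markers summed to 219.8 to 1219.5 with nicotinamide, against 49.9 to 528.5 in block 2 and 168.5 to 393.7 in block 3 of that group, and 138.5 to 1179 in 4-month DBA/2J. Müller glia and astrocyte markers summed to 1383.5 to 2719 with nicotinamide, against 3914 to 8407 in block 1, 1540.1 to 6696 in block 2 and 378.3 to 1506 in block 3 of that group. Rod markers summed to 3823 to 82197 in block 2 of 9-month DBA/2J and to 7164 to 8960 in block 3. The part of these cells in the member values was not tested.

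Nicotinamide was compared with water in 9-month DBA/2J mice, to ask whether the treatment changed these genes. Changes here and below are log2 fold changes ± standard error, and levels are normalised read counts given from the lowest library over the median to the highest. With limma over all genes, 14 of 80 members passed an adjusted p of 0.05 and every one of them was lower with nicotinamide, when 15.1% of all genes tested were called and 5.34% were called lower. Of the count tests on recovered reads, edgeR called 18 and DESeq2 22, all lower. They called 16.3% and 21.1% of all genes in either direction. The limma calls were 4 of 35 in complex I, none of 4 in complex II, 3 of 9 in complex III, 4 of 15 in complex IV and 3 of 15 in complex V. The median log2 fold change was -0.28 over members and -0.03 over all genes, and 66 of 80 members were on the lower side. At an unadjusted p under 0.05 there were 28 of 80 members and 31.4% of all genes. These are bulk samples, in which fewer cells of a type and less RNA per cell cannot be told apart. Within block 3, with 7 treated and 3 untreated libraries, limma called 0 of 79 members, when 0.00749% of all genes were called, and 3 members were at an unadjusted p under 0.05, as were 16.8% of all genes. The median there was -0.07, and 9 of the 14 members kept a negative sign. With column block as a covariate 0 were called, and 0% of all genes. Because all treated libraries are of block 3, the fold changes of that fit are those of block 3, with other standard errors. Without block 1 the count was 30, all lower, when 14.3% of all genes were called and 5.7% lower. Leaving out each library in turn gave 3 to 14 calls. In fits that leave out a library, here and below, the share of all genes called was not counted. The fewest were without treated library 5 with 3, library 1 with 4 and libraries 3, 4 and 7 with 5 each, and library 2 gave 6. Ndufa3, Uqcrc1 and Uqcrq were called in all 32 such fits.

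Strain at 9 months was compared on water, DBA/2J against D2-Gpnmb+, which is the comparison of mice that will develop glaucoma with their controls. Limma called 0 of 80 members, when 0.0218% of all genes were called. At an unadjusted p under 0.05 there were 54 of 80 members and 13.2% of all genes. Of the count tests, edgeR called 0 members and 0.08% of all genes. DESeq2 called 15 members, all higher, and 2.25% of all genes in either direction. The fold change was positive for 75 of 80 members with a median of 0.50, against -0.03 over all genes, and all members of complexes I, III and V were positive. Without D2-Gpnmb+ library 9 there was 1 call. The 3 largest were 0.88 ± 0.30 for Ndufa4, 0.87 ± 0.23 for Uqcrq and 0.83 ± 0.24 for the complex I accessory gene Ndufb8, with limma adjusted p from 0.0987 to 0.188. The 3 smallest were Cox6b2 with -0.40, Cox4i2 with -0.15 and Atp5s with -0.07 (limma adjusted p 0.601, 0.923 and 0.930). Within blocks limma called 0 members each time, and the median was 0.21 in block 1, 0.58 in block 2 and 0.04 in block 3. At an unadjusted p under 0.05 those fits had 10, 31 and 2 members and 24.2%, 5.42% and 6.36% of all genes, and they called 12.3%, 0% and 0% of all genes. With column block as a covariate over all 3 blocks, 0 members and 0.0145% of all genes were called, the median was 0.28, 72 of 80 members were positive, and 26 members were under an unadjusted p of 0.05, with 11.1% of all genes. Block 2 has only 2 D2-Gpnmb+ libraries, with member medians of 4.37 and 4.54, against 4.50 to 5.65 in its 16 DBA/2J libraries.

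At 4 months, limma called 0 of 79 members between DBA/2J and D2-Gpnmb+ on water, when 0.25% of all genes were called. There were 7 members at an unadjusted p under 0.05, with 13.5% of all genes. EdgeR and DESeq2 called 0 members, and 0.281% and 1.59% of all genes. The median log2 fold change was -0.01 over members and 0.01 over all genes. In complex IV, 13 of 14 members were on the lower side in DBA/2J, with a median of -0.17, and in complex II all 4 were on the higher side, with a median of 0.08. The outermost members were Atp5e with -0.36 ± 0.11, Ndufb11 with -0.34 ± 0.12 and Ndufb4 with -0.32 ± 0.15 on the low side. On the high side stood Atp5a1 with 0.27 ± 0.12, Ndufa9 with 0.23 ± 0.15 and Cyc1 with 0.18 ± 0.10. When the values were scaled to total reads instead, the median was 0.23 over members and 0.24 over all genes, so signs in this comparison hold only relative to the deposited scaling.

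Age was compared within each strain, 9 against 4 months. In DBA/2J, limma called 30 of 80 members and all were higher at 9 months, when 22.4% of all genes were called and 9.25% were called higher. EdgeR called 37 and DESeq2 41, all higher, when they called 23.3% and 27.3% of all genes in either direction. The limma calls were 13 of 35 in complex I, 1 of 4 in complex II, 4 of 9 in complex III, 7 of 15 in complex IV and 5 of 15 in complex V. The median was 0.37 over members and 0.02 over all genes, and 68 of 80 members were positive. At an unadjusted p under 0.05 there were 44 of 80 members and 36% of all genes. Within block 3, with 3 libraries of 9 months and 10 of 4 months, limma called 0 of 80, when 0.263% of all genes were called, and 3 members were at an unadjusted p under 0.05, as were 10.7% of all genes. The median there was 0.13, and 25 of the 30 members kept a positive sign. With column block as a covariate 0 were called, and 0.0589% of all genes. Since all 4-month libraries are of block 3, the fold changes of that fit are again those of block 3. Without block 1, 48 of 79 members were called, all higher, when 19.2% of all genes were called and 8.27% higher. Leaving out each library in turn gave 22 to 35 calls, with the fewest without 4-month library 8, and 19 of the 30 were called in all 35 fits. This comparison and that of nicotinamide with water use the same 25 libraries, so their opposite signs are not independent.

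In D2-Gpnmb+, limma called 0 of 79 members between 9 and 4 months, when 0.0232% of all genes were called. There were 13 members at an unadjusted p under 0.05, with 30.3% of all genes. EdgeR called 2 members and 11.6% of all genes, and DESeq2 called 4 members and 16.4% of all genes. The median was -0.13 and 56 of 79 members were negative. The largest were Cox4i2 with 1.2 ± 0.47, Cox6b2 with 0.91 ± 0.32 and Uqcrc1 with 0.35 ± 0.19. The smallest were Ndufa4 with -0.90 ± 0.26, Cox7a2l with -0.67 ± 0.20 and Ndufb5 with -0.61 ± 0.20. Leaving out 9-month library 13, 15, 9 or 14 gave 8, 5, 3 and 3 calls. The share of all genes called in those fits was not counted, so these counts are no result about the members. Within block 3 the median was 0.08, with 0 of 79 called, when 0% of all genes were called, and 0 at an unadjusted p under 0.05, with 4.68% of all genes. With total-read scaling the median over members was 0.20 and that over all genes 0.31, so the sign turned with the scaling.

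The difference between the strains in their change with age was tested as an interaction, in which a positive value means a larger rise in DBA/2J. Limma called 0 of 80 members, when 0.375% of all genes were called. There were 36 members at an unadjusted p under 0.05, with 12.9% of all genes. EdgeR called 0 members and 0.297% of all genes, and DESeq2 called 9 members, all higher, and 2.27% of all genes in either direction. The median was 0.50, and the largest values were Atp5e with 1.13 ± 0.32, Ndufa4 with 1.05 ± 0.38 and Uqcrq with 1.04 ± 0.29 (limma adjusted p 0.0797, 0.188 and 0.0807). The smallest were Ndufa4l2 with -0.23, Cox6b2 with -0.18 and Sdha with -0.16. Within block 3 the median was 0.05, 0 of 80 members were called, when 0.0774% of all genes were, and 0 were under an unadjusted p of 0.05, with 8.29% of all genes. With column block as a covariate the median was 0.32, 0 members and 0.0848% of all genes were called, and 19 members were under an unadjusted p of 0.05, with 12.7% of all genes. Without block 1, 3 members were called, all higher, when 0.949% of all genes were called and 0.443% higher, and leaving out D2-Gpnmb+ 9-month library 9 gave 3 calls and DBA/2J 9-month library 5 or 27 gave 1.

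Nicotinamide-treated 9-month DBA/2J libraries were also set against the other groups. Against 9-month D2-Gpnmb+, limma called 0 of 79 members, when 0% of all genes were called, and 15 members were at an unadjusted p under 0.05, with 29.4% of all genes. EdgeR called 2 members and 8.17% of all genes, and DESeq2 called 6 members and 16% of all genes. The median was 0.21, and -0.03 within block 3, where 0 members and 0.299% of all genes were called, and 8 members were under an unadjusted p of 0.05, with 16.7% of all genes. Leaving out D2-Gpnmb+ library 13 gave 4 calls, library 8 or 15 gave 1, and library 15 within block 3 gave 2. Here Cox4i2 with -1.44 ± 0.53, Cox6b2 with -1.28 ± 0.36 and Ndufs7 with -0.37 ± 0.14 were the lowest, and Ndufa4 with 0.67, Ndufb9 with 0.65 and Ndufb5 with 0.61 the highest. Against 4-month DBA/2J, where every library is of block 3, limma called 0 of 79 members, when 1.54% of all genes were called, and 4 members were at an unadjusted p under 0.05, with 14.9% of all genes. EdgeR called 0 members and 1.59% of all genes, and DESeq2 called 1 member and 3.83% of all genes. The median was 0.07. The values lay between -0.19 ± 0.10 for Uqcrfs1, with Cox6b2 and Ndufs7 next at -0.15 and -0.13, and 0.37 ± 0.10 for Ndufb11, with Ndufb4 and Ndufa7 next at 0.30 and 0.29.

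**Figure D2:**
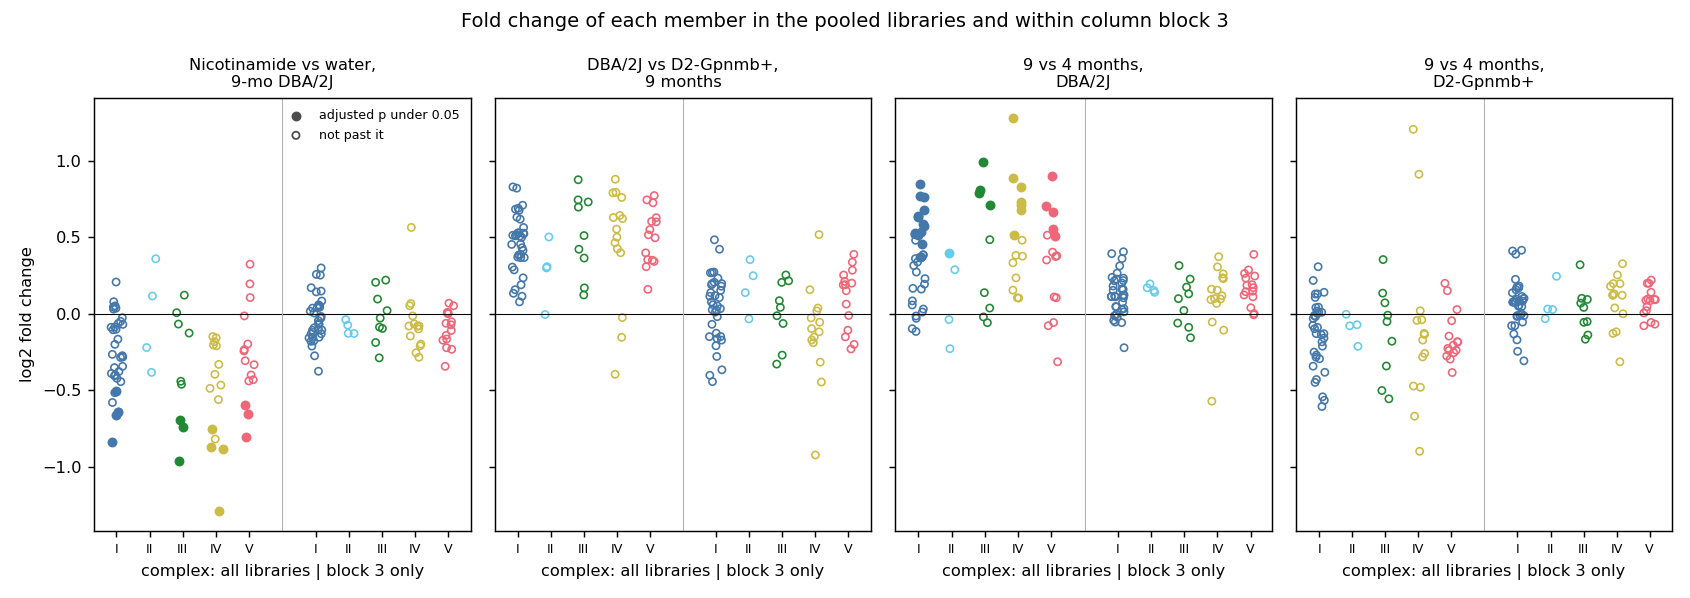
Each point is 1 member, with its log2 fold change on the y axis and its complex on the x axis, first for all libraries and then for block 3 alone, in 4 comparisons. Filled points passed an adjusted p of 0.05 in limma: 14 for nicotinamide, all below 0, and 30 for age in DBA/2J, all above 0, with none filled within block 3.

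Complex I takes electrons from NADH. Some of its catalytic core genes were called and others were not. Ndufs7 and Ndufs8, iron-sulfur subunits near the quinone, rose with age in DBA/2J by 0.53 ± 0.17 and 0.51 ± 0.16 (limma adjusted p 0.0217 and 0.0212). Within block 3 Ndufs8 had 0.24. Ndufs1, the large iron-sulfur subunit, had -0.02 ± 0.13, and Ndufv1, which binds NADH and FMN, had 0.17 ± 0.14, neither of them called. Ndufs1 values ran from 33.3 over 42.7 to 49.3 with nicotinamide, and from 17.2 over 45.3 to 60.9 in 9-month and 38.3 over 41.4 to 48.8 in 4-month DBA/2J on water. The treated and 4-month ranges lie within the untreated 9-month range. The accessory gene Ndufa3 gave the smallest adjusted p of the complex. It ran from 3.51 over 4.98 to 5.34 with nicotinamide, and from 3.38 over 9.49 to 16.6 in 9-month DBA/2J on water, and it fell by 0.84 ± 0.20 (limma adjusted p 0.00426). Its rise with age in DBA/2J was 0.84 ± 0.17 (limma adjusted p 8.3e-04), and the 3 untreated 9-month libraries of block 3, with 3.38, 4.66 and 8.14, spanned the treated range.

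Other accessory genes of complex I that rose with age in DBA/2J were Ndufb11 with 0.77 ± 0.17, Ndufa11 with 0.68 ± 0.19 and Ndufa2 with 0.63 ± 0.15 (limma adjusted p 0.00154, 0.0109 and 0.00244). With nicotinamide, Ndufs7 fell by 0.66 ± 0.20, Ndufa11 by 0.64 ± 0.22 and Ndufa2 by 0.50 ± 0.17 (limma adjusted p 0.0225, 0.0416 and 0.0349). Within block 3 the values of Ndufa11 turned to -0.04 with age and 0.08 with nicotinamide, those of Ndufs7 were -0.0050 and -0.12, and those of Ndufa2 were 0.07 and 0.06. Ndufb11 had 0.20 with age there. The lowest change with age was that of Ndufs4 with -0.12 ± 0.14. Ndufab1, the mitochondrial acyl carrier protein that is also a complex I subunit, had -0.10 ± 0.16 with age and 0.21 ± 0.20 with nicotinamide and was not called.

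Complex II oxidises succinate and also serves the citric acid cycle. Sdhb, its iron-sulfur subunit, rose with age in DBA/2J by 0.39 ± 0.14 (limma adjusted p 0.0438) and had 0.14 within block 3, while the flavoprotein gene Sdha had -0.23 ± 0.12 and the membrane anchors Sdhc and Sdhd had 0.29 ± 0.13 and -0.04 ± 0.16. Sdha was among the highest members, from 249.3 over 269.3 to 299.7 with nicotinamide, and on water from 131.1 over 224.7 to 307.1 in 9-month and 203.7 over 249.95 to 281.1 in 4-month DBA/2J. In D2-Gpnmb+ it ran from 168.3 over 212.9 to 279.5 at 9 months and from 173.3 over 220.3 to 283.9 at 4 months. The low untreated 9-month values came mostly from block 1, with 131.1 to 209.5, and the block 3 libraries of that group had 264.3, 270.9 and 306.1. Sdha differed by 0.36 ± 0.14 with nicotinamide (limma adjusted p 0.0826) and by -0.04 ± 0.09 within block 3 (0.876). For Sdhb, Sdhc and Sdhd the nicotinamide values were -0.38, -0.22 and 0.12, none called.

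Complex III hands electrons to cytochrome c. Of its small subunits, Uqcrq ran from 7.005 over 8.68 to 11.1 with nicotinamide, and on water from 8.23 over 17.4 to 38.1 in 9-month and from 4.21 over 9.06 to 10.03 in 4-month DBA/2J. In D2-Gpnmb+ it ran from 4.61 over 11.1 to 15.3 at 9 months and from 7.77 over 9.99 to 12.0 at 4 months. Only 9-month DBA/2J on water reached beyond 15.3. The gene lies on chromosome 11 (53427922 to 53430831, GRCm38, minus strand). It fell with nicotinamide by 0.96 ± 0.23 and rose with age in DBA/2J by 0.99 ± 0.20 (limma adjusted p 0.00455 and 7.2e-04). In the 3 block 3 libraries of untreated 9-month DBA/2J it had 8.23, 11.6 and 13.4, and the changes there were -0.29 ± 0.19 and 0.31 ± 0.21 (limma adjusted p 0.464 and 0.658).

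Uqcr11 and Uqcr10, further small subunits, rose with age in DBA/2J by 0.79 ± 0.21 and 0.71 ± 0.19, and Uqcr11 fell with nicotinamide by 0.74 ± 0.24 (limma adjusted p 0.00561, 0.00737 and 0.0292). Within block 3 the Uqcr11 values had the opposite signs, -0.16 and 0.20, and Uqcr10 had 0.23 with age. The core gene Uqcrc1 ran with nicotinamide from 15.9 over 16.5 to 18.1, against 12.5 over 29.4 to 51.0 in untreated 9-month DBA/2J. Its change with nicotinamide was -0.69 ± 0.20 and with age in DBA/2J 0.81 ± 0.17 (limma adjusted p 0.0166 and 0.00105). In block 3 the untreated 9-month values were 14.7, 15.7 and 16.1, below the treated median, and the changes were 0.10 and 0.02. The genes of the redox centres and hinge were not called. With age in DBA/2J, Cyc1 had -0.02, the Rieske gene Uqcrfs1 -0.06 and Uqcrh 0.48, and with nicotinamide they had 0.01, -0.13 and -0.44.

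Complex IV reduces oxygen. Cox4i1, the common form of its subunit 4 on chromosome 8 (120668222 to 120674207, GRCm38, plus strand), ran from 42.7 over 47.1 to 59.6 with nicotinamide, and on water from 36.6 over 88.6 to 208.2 in 9-month and from 33.1 over 48.6 to 56.0 in 4-month DBA/2J. In D2-Gpnmb+ it ran from 24.5 over 53.1 to 68.7 at 9 months and 32.1 over 49.99 to 65.6 at 4 months. The 16 block 2 libraries of 9-month DBA/2J, from 63.9 to 208.2, hold all of the high values, while block 1 had 36.6 to 62.0 and block 3 had 42.9, 55.3 and 58.9. Cox4i1 fell with nicotinamide by 0.75 ± 0.25 and rose with age in DBA/2J by 0.82 ± 0.21 (limma adjusted p 0.0383 and 0.00534), and it had -0.08 and 0.15 within block 3. Cox6b1, which faces the intermembrane space, fell by 0.87 ± 0.28 and rose by 0.89 ± 0.24 (limma adjusted p 0.0300 and 0.00713), with -0.28 and 0.31 in block 3.

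Cox6b2 rose with age in DBA/2J by 0.73 ± 0.26 (limma adjusted p 0.0396) and had -0.05 in block 3. Cox5b, Cox6a1 and Cox8a, further nuclear subunits of complex IV, rose with age in DBA/2J by 0.71 ± 0.18, 0.68 ± 0.22 and 0.51 ± 0.19 (limma adjusted p 0.00390, 0.0254 and 0.0424), and had 0.26, 0.37 and 0.23 within block 3. Not called with age were Cox7a2 with 0.38, Cox5a with 0.23, Ndufa4 with 0.15 and Cox7a2l, a supercomplex factor, with 0.10. With nicotinamide none of these 7 genes was called. Their values were -0.56 for Cox6a1, -0.49 for Cox8a, -0.47 for Cox5b, -0.40 for Cox7a2, -0.21 for Ndufa4, -0.20 for Cox5a and -0.18 for Cox7a2l. No members with the symbols of the muscle isoforms Cox6a2, Cox7a1 and Cox8b were found, so these were not analysed here.

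Complex V makes ATP. Its called members were not among the catalytic core genes alpha, beta and gamma. Atp5b ran from 909.7 over 1043.9 to 1239 with nicotinamide, from 420.5 over 1063 to 1799 in 9-month and from 731.7 over 1061 to 1276 in 4-month DBA/2J on water, with medians close to each other and the widest range in untreated 9-month libraries. Its differences were 0.11 ± 0.23 with nicotinamide and -0.06 ± 0.20 with age in DBA/2J, neither called. For Atp5a1 (alpha) they were 0.32 ± 0.18 and -0.31 ± 0.15, and for Atp5c1 (gamma) -0.01 and 0.10. By contrast Atp5e (epsilon) ran from 9.15 over 12.96 to 18.4 with nicotinamide, and on water from 8.23 over 23.5 to 62.6 in 9-month and from 10.4 over 10.8 to 17.1 in 4-month DBA/2J. It fell with nicotinamide by 0.81 ± 0.26 and rose with age by 0.90 ± 0.22 (limma adjusted p 0.0310 and 0.00292). In block 3 the untreated 9-month libraries had 8.23, 14.5 and 18.2, spread over the range of the other groups, and the changes were -0.05 and 0.15.

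Atp5l (subunit g) and Atp5g2 (subunit c) rose with age in DBA/2J by 0.70 ± 0.19 and 0.66 ± 0.15 and fell with nicotinamide by 0.65 ± 0.23 and 0.60 ± 0.18 (limma adjusted p 0.00849, 0.00242, 0.0467 and 0.0241). Atp5j2 (subunit f) rose with age by 0.55 ± 0.17 (limma adjusted p 0.0152). Within block 3 the values with age were 0.12 for Atp5l, 0.23 for Atp5g2 and 0.25 for Atp5j2, and with nicotinamide -0.07 for Atp5l and -0.17 for Atp5g2. Atp5g1 and Atp5g3 encode the same mature subunit c as Atp5g2. They had 0.37 and -0.08 with age, and -0.43 and 0.19 with nicotinamide, none called. Reads of such close gene copies can be divided between them by the counting.

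**Figure D3:**
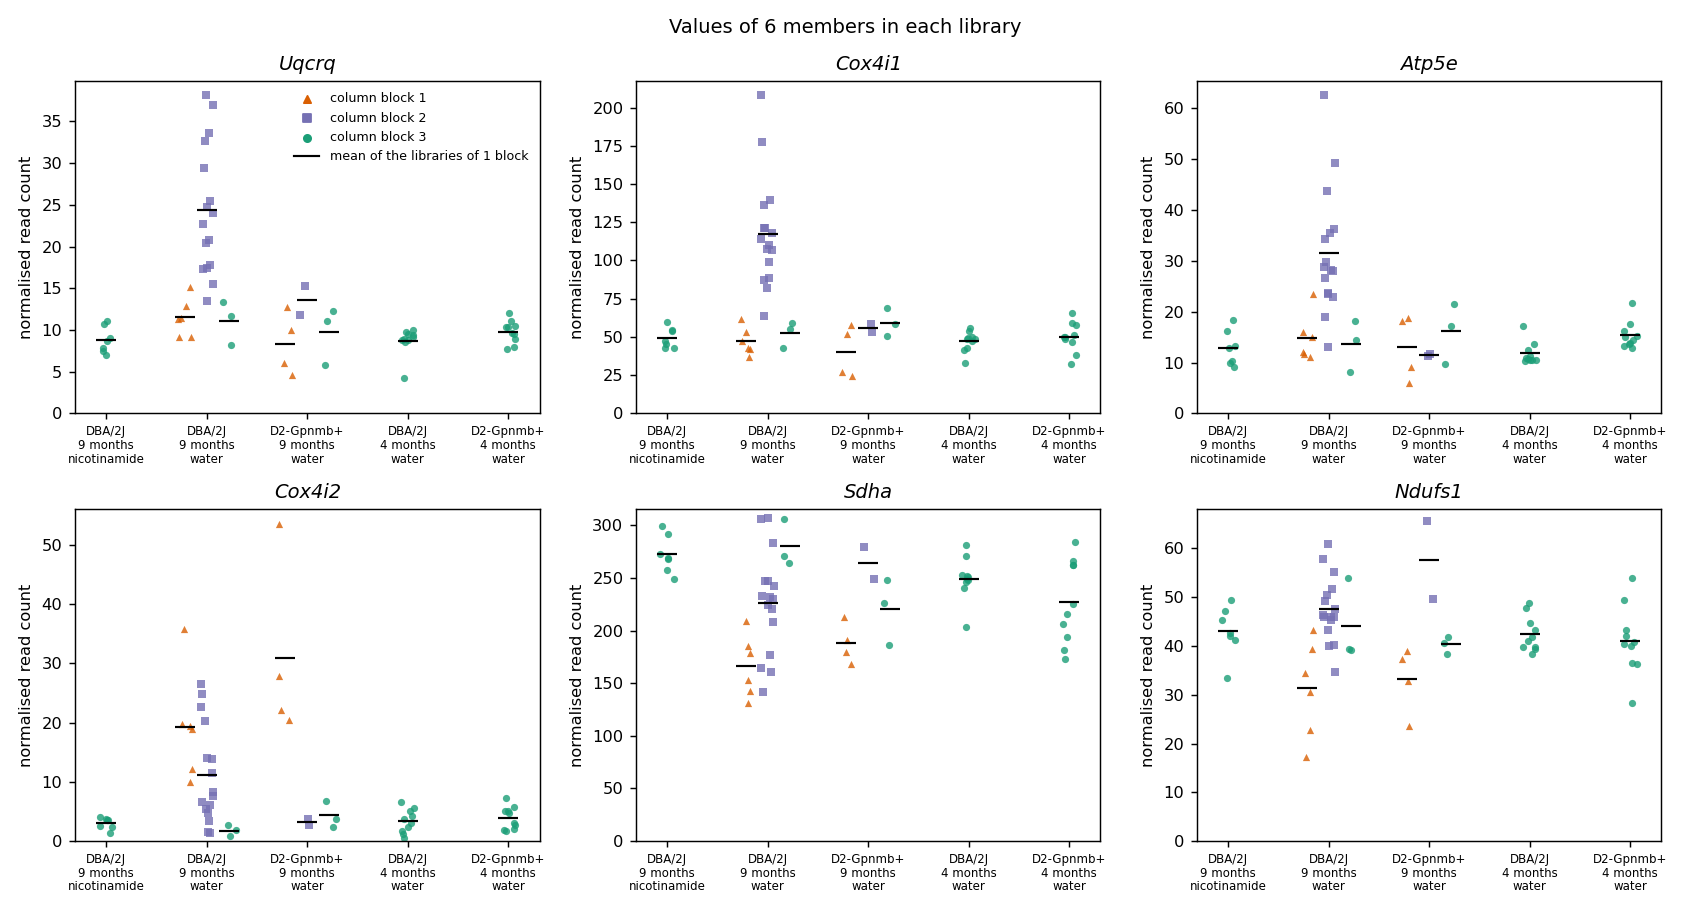
Each point is the normalised read count of 1 library for 6 members, by group on the x axis and by column block in colour and symbol, with bars for block means. The high Uqcrq, Cox4i1 and Atp5e libraries are block 2 libraries of untreated 9-month DBA/2J, where Cox4i1 reaches 208.2, and the Cox4i2 libraries of block 1 are high in both strains.

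Cox4i2 followed another pattern. This form of subunit 4 is known from lung and from cells at low oxygen, and its gene lies on chromosome 2 (152754173 to 152765037, GRCm38, plus strand). It ran from 1.41 over 3.50 to 4.11 with nicotinamide, and on water from 0.776 over 10.02 to 35.8 in 9-month DBA/2J. In that group block 1 averaged 19.3 ± 9.05 (SD, n = 6), block 2 averaged 11.2 ± 8.35 (SD, n = 16) and block 3 averaged 1.77 ± 0.935 (SD, n = 3). The 4 block 1 libraries of 9-month D2-Gpnmb+ had 22.1, 27.9, 20.4 and 53.5, against 2.42, 3.80 and 6.78 in block 3. Both strains were thus higher in block 1 than in block 3 without overlap. The pooled values were -1.29 ± 0.45 with nicotinamide and 1.28 ± 0.40 with age in DBA/2J (limma adjusted p 0.0488 and 0.0197), and within block 3 they were 0.56 ± 0.28 and -0.57 ± 0.41, with the signs turned (limma adjusted p 0.324 and 0.677).

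Per kilobase, Cox4i2 made up 5.66% ± 1.92 of Cox4i1 plus Cox4i2 with nicotinamide (SD, n = 7). In untreated 9-month mice the share in block 1 was 27.7% ± 8.79 in DBA/2J (SD, n = 6) and 42.7% ± 7.68 in D2-Gpnmb+ (SD, n = 4). In block 3 it was 3.27% ± 1.74 in DBA/2J and 6.48% ± 2.45 in D2-Gpnmb+ (SD, n = 3 each). Other alternative isoforms went the same way. Cox6b2, the testis form of subunit 6b, took 21.8% in DBA/2J and 35.4% in D2-Gpnmb+ in block 1 at 9 months, against 6.16% in DBA/2J and 8.90% in D2-Gpnmb+ in block 3. For Ndufa4l2, a known hypoxia target, the shares were 11.2% in DBA/2J and 9.53% in D2-Gpnmb+ in block 1, against 1.09% in DBA/2J and 0.88% in D2-Gpnmb+ in block 3. Pooled, Cox6b2 fell with nicotinamide by 0.88 ± 0.30 (limma adjusted p 0.0432) and had -0.10 in block 3, and Ndufa4l2 had -0.82 with nicotinamide and 0.33 with age in DBA/2J, neither called. As a sum, markers of endothelium, pericytes and muscle were higher in the same libraries. Their 10 genes summed to 110.5 to 213.6 with nicotinamide. In untreated 9-month DBA/2J they summed to 433.4 to 1150 in block 1 and 72.3 to 224.4 in block 3, and in 9-month D2-Gpnmb+ to 747.6 to 1074 in block 1 and 107.7 to 219.7 in block 3. None of the 10 had a median of 0 in any group. Kdr weighs most in the sums, with a mean of 179.4 over all libraries. The means were 55.6 for Rgs5, 33.9 for Pdgfrb and at most 7.35 for the others. Values of the single markers by block are not given here. The part of these cells in the isoform values was not tested.

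Libraries with the same strain, age and treatment were then compared between blocks. The blocks were divided after expression values were looked at. The calls between them therefore describe that division and are no independent test of it. In untreated 9-month DBA/2J, block 2 against block 1, limma called 59 of 80 members, 58 of them higher and Ndufa4l2 lower with -1.90, when 26.7% of all genes were called and 14% higher. All 15 members of complex V and 24 of 35 of complex I were called, and the median was 0.79. The largest were Ndufa4 with 1.54, Cox7b with 1.40 and Cox6b1 with 1.40. Block 2 against block 3 gave 10 calls, all higher, when 4.67% of all genes were called and 2.78% higher. They were Uqcr11, Atp5e, Cox4i1, Ndufb2, Cox6b1, Uqcrq, Ndufb8, Atp5l, Ndufb11 and Uqcrh, from 1.28 down to 0.75. Block 1 against block 3 gave 21 calls, 16 lower and 5 higher, when 31.7% of all genes were called, 15.4% lower and 16.3% higher. The lowest were the ATP synthase genes Atp5b with -1.21, Atp5c1 with -1.08 and Atp5g3 with -1.06 beside Ndufb9 with -1.09, and the higher were Cox4i2, Ndufa4l2, Cox6b2, Atp5sl and Uqcrc1. In 9-month D2-Gpnmb+, block 1 against block 3 gave 28 calls, 24 lower and 4 higher, when 40.5% of all genes were called, 18.9% lower and 21.5% higher, with Ndufa4 the lowest at -1.53. The higher were Cox4i2, Cox6b2, Ndufa4l2 and Uqcrc1, from 2.56 to 0.91. The 4-month and nicotinamide libraries lie in block 3 alone, so in the pooled comparisons of age and of nicotinamide the other 2 blocks cannot be told apart from the untreated 9-month groups, while both strains at 9 months are present in all 3 blocks.

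In some of the pooled comparisons fold changes were related to transcript length. Over the 80 members, the Spearman correlation of the change with age in DBA/2J with exon length was -0.48, and over 13465 genes -0.28. The 40 members shorter than the median of 1011 bases had a median change of 0.51, and the others had 0.15. Over all genes, short and long genes had medians of 0.32 and 0.01. Within block 3 the member correlation was -0.04 and the member medians were 0.13 and 0.14. For nicotinamide the correlation was 0.42 over members and 0.21 over all genes. The medians of short and long genes were -0.40 and -0.15 over members and -0.27 and -0.02 over all genes. Within block 3 the member correlation was -0.10 and the member medians were -0.07 and -0.08. Over members the correlation was -0.47 for strain at 9 months and -0.53 for the interaction, with 0.33 and -0.02 in block 3. It was 0.51 for strain at 4 months. Over all genes the values for strain at 9 months, the interaction and strain at 4 months were -0.25, -0.23 and 0.07. In the other comparisons the member correlation lay between -0.19 for nicotinamide against 4-month DBA/2J and 0.14 for age in D2-Gpnmb+. It was 0.06 for nicotinamide against 9-month D2-Gpnmb+. Between block 2 and block 3 of 9-month DBA/2J, where group and age are the same, short members had 0.68 and long members 0.26. Over all genes the short had 0.37 and the long 0.0014. Genes of 1 table are not independent, and what length shares with RNA quality or counting was not tested.

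**Figure D4:**
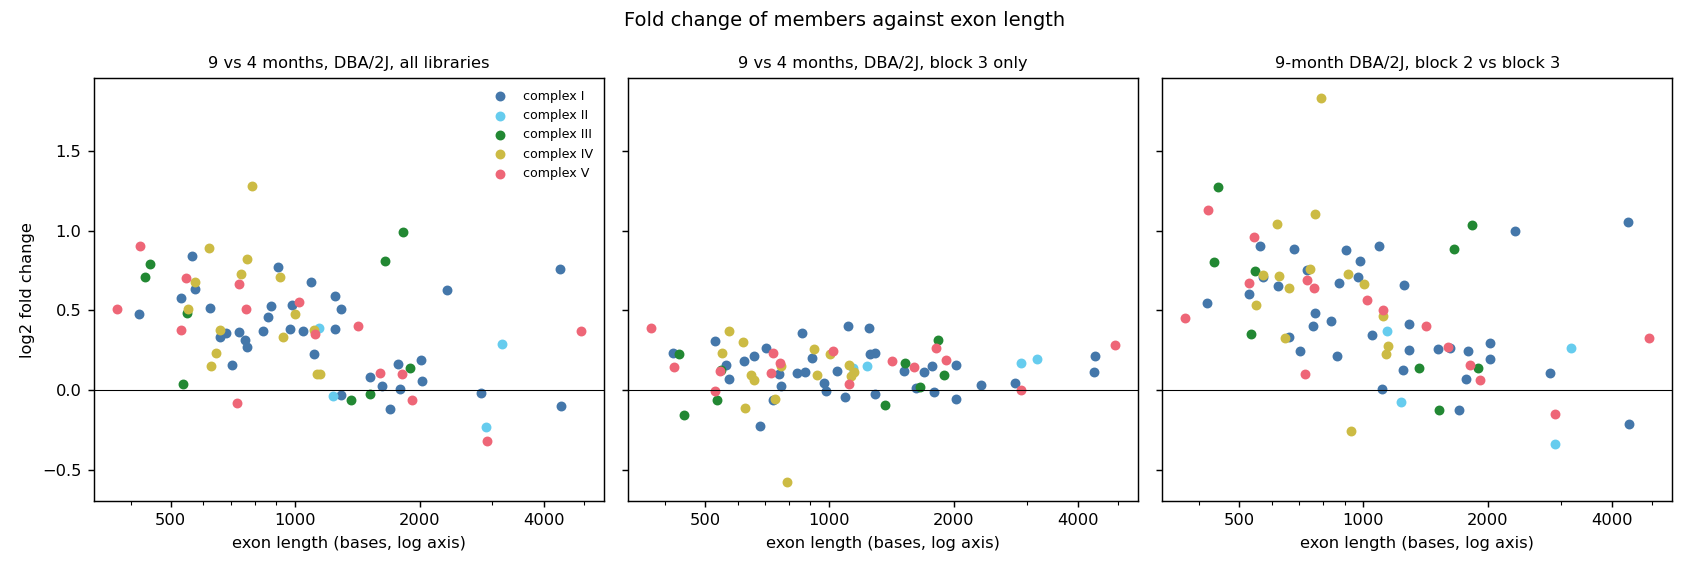
Each point is 1 member, with exon length in bases on a log x axis, the log2 fold change on the y axis and colours for complexes, for age in DBA/2J over all libraries, for age within block 3, and for block 2 against block 3 of 9-month DBA/2J. Members shorter than 1011 bases have a median of 0.51 in the panel for all libraries, 0.13 within block 3 and 0.68 between blocks.

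Members varied unequally. The SD of log2 values over all 61 libraries had a median of 0.48 over members and 0.49 over all genes, and within block 3 it was 0.27 and 0.34. The steadiest were Uqcrc2, the other core protein of complex III, with 0.24, Cyc1 with 0.28 and Sdha with 0.30, and the most variable were Cox4i2 with 1.21, Ndufa4l2 with 0.86 and Cox6b2 with 0.80. The Spearman correlation of a member with the median member level was highest for Cox6a1 with 0.88 and Cox4i1 with 0.87 and was negative for Ndufa4l2, Atp5sl, Cox4i2 and Cox6b2. Each member is part of that median. Of the genes that are no members, those most like the median over the 61 libraries included Rpl14 and Chchd2 with 0.87 each, Timm8b with 0.85, and Rpl28 and BC033916 with 0.83 each.

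Other genes of the pathway were counted in the same fits, which called 22.4% of all genes with age in DBA/2J and 15.1% with nicotinamide. Of the 13 mitochondrially encoded subunits, limma called 0 with nicotinamide and 0 with age in DBA/2J, with medians of 0.34 and -0.52, and -0.11 and 0.07 within block 3. Between blocks their medians were larger than those of the nuclear members, and 13 of 13 were higher in block 2 than in block 1 of 9-month DBA/2J, by a median of 2.12, and all 13 were lower in block 1 than in block 3 of 9-month D2-Gpnmb+, by -3.70. Among 42 assembly factors, Cox14, Cox19 and Acad9 rose with age in DBA/2J by 0.67, 0.60 and 0.49 and Ndufaf4 fell by 0.68 (limma adjusted p 0.0247, 0.00382, 0.00379 and 0.00264). In block 3 they had 0.10, 0.20, 0.21 and, with the sign turned, 0.20. With nicotinamide Cox19 fell by 0.54 and Ndufaf4 rose by 0.78 (limma adjusted p 0.0348 and 0.00422), and in block 3 they had -0.13 and, with the sign turned, -0.10. Of 11 genes for carriers, ubiquinone synthesis and the ATP synthase inhibitor, Coq6 rose with age by 0.60 and Coq5 fell by 0.57 (limma adjusted p 0.0322 and 0.0227), with the signs turned to -0.20 and 0.28 in block 3, and 0 were called with nicotinamide. Among 14 regulators, Lonp1, a mitochondrial protease, rose with age by 0.43, and Gabpa fell with age by 0.33 and rose with nicotinamide by 0.42 (limma adjusted p 0.0287, 0.0141 and 0.0106). In block 3 Lonp1 had 0.13, and Gabpa had -0.05 with age and 0.14 with nicotinamide. None of these 8 genes was called in block 3, where limma adjusted p ran from 0.447 to 0.928. Of the 14 regulators, Hif1a, the oxygen-regulated subunit of hypoxia-inducible factor, was called there with age in DBA/2J, by 0.62 ± 0.13 (limma adjusted p 0.0457), and is named after its value was seen. With column block as a covariate Hif1a had 0.62 ± 0.20 (limma adjusted p 0.403) and was not called.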

How the data were processed

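The submitters' processing notes name TopHat2 2.0.7, Bowtie2 2.0.6, HTSeq and the mm10 genome. The deposited values are a signal, gene read counts that the authors divided by a size of each library on a scale near 1e6, and are not logarithms. The sources used here do not give the way that size was computed. All 61 columns were used and matched to groups, not to single samples. Of 15171 genes, 22 with names turned into dates were left out. Whole reads were recovered for 100% of values (tolerance 0.05) and used for edgeR 4.0.16 quasi-likelihood and DESeq2 1.42.0 fits as alternatives.

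Limma 3.58.1 in R 4.3.3 was fitted with trend and robust options to log2(value + 1) of the groups in a comparison, for genes that reached a value of 1 in at least the number of libraries of the smaller group. Fold changes, given as log2 ± standard error, are on that scale, which understates the change of low genes. P-values were adjusted by Benjamini-Hochberg over all genes tested, at 0.05. The fit was tested on simulated data. The outcome is not given here, so that test says nothing about calls in fits that pool the column blocks. Exon lengths and coordinates came from the GRCm38 annotation, for 80 of 80 members. Members, gene lists, named genes and alternatives were chosen with earlier results of these data known. Named were a list of core and isoform genes, per comparison and complex the 4 members with the smallest adjusted p among those called, the 3 largest and 3 smallest changes, and the 6 non-member genes most like the median, of which some are not reported here. Alternatives were a pseudocount of 0.5, no filter, total-read scaling, both count tests, column blocks and leaving out each library.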

Additional observations from a re-analysis of the deposited data

Results flagged for a closer look

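Single libraries stood far from the rest of their group, by the gap to the nearest library relative to the range of the group, in 9 of 144 checks of complex medians and 30 core members. Chance gives about 1 in 20 for a single check. The checks share libraries and are not independent, so the count was not tested against that rate. In nicotinamide-treated DBA/2J, library 8 was the highest for Ndufa4 with 72.6 (next 53.9) and for Uqcrc1 with 18.1 (next 16.8). In 9-month D2-Gpnmb+, library 5 of block 1 was the lowest for the complex III median with 3.17 (next 3.94) and for Uqcrfs1 with 5.12 (next 14.4). In 4-month DBA/2J, library 3 was the lowest for Uqcrfs1 with 17.1 (next 24.1) and Uqcrh with 20.5 (next 36.8), library 8 the lowest for Sdha with 203.7 (next 240.9), library 4 the highest for Ndufs8 with 14.7 (next 9.34) and library 10 the highest for Cox8a with 66.6 (next 50.2).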

How the results depend on the processing

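Counts of called members kept to within 1.5 times under a pseudocount of 0.5, no filter and total-read scaling in all 8 comparisons. DESeq2 called 15 members for strain at 9 months, 4 for age in D2-Gpnmb+, 22 for nicotinamide, 6 for nicotinamide against D2-Gpnmb+, 1 for nicotinamide against 4-month DBA/2J and 9 for the interaction, and edgeR called 2 for age in D2-Gpnmb+ and 2 for nicotinamide against D2-Gpnmb+; the shares of all genes called by these tools stand with each comparison. Block 3 alone, and column block as a covariate, each gave 0 for age in DBA/2J and 0 for nicotinamide, and without block 1 the counts were 48, 30 and, for the interaction, 3. For age in DBA/2J and nicotinamide the covariate fit has the fold changes of block 3 by design, so it is no separate check. In block 3 the median change was 0.036 for strain at 9 months and 0.050 for the interaction, and with column block as a covariate it was 0.28 and 0.32. Total-read scaling gave medians of 0.23 for strain at 4 months, 0.20 for age in D2-Gpnmb+ and 0.17 for the interaction, with all genes at 0.24, 0.31 and -0.36. The cause of these differences was not tested.

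In block 3 and with the covariate, changes with age in DBA/2J turned to -0.57 for Cox4i2, -0.055 for Cox6b2, -0.044 for Ndufa11, -0.0050 for Ndufs7 and -0.16 for Uqcr11. With nicotinamide they turned to 0.56 for Cox4i2, 0.082 for Ndufa11, 0.058 for Ndufa2, 0.20 for Uqcr11 and 0.10 for Uqcrc1.

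Leaving out each library gave 22 to 35 calls for age in DBA/2J, 3 to 14 for nicotinamide, 0 to 8 for age in D2-Gpnmb+, 0 to 3 for the interaction, 0 to 1 for strain at 9 months and 0 to 4 for nicotinamide against D2-Gpnmb+. Shares of all genes called in such fits were not counted. Within block 3 only the untreated 9-month libraries were left out in turn, and no treated or 4-month ones. Those fits gave 0 calls, or 0 to 2 for nicotinamide against D2-Gpnmb+. Medians over all libraries ran from 0.40 to 0.52 for strain at 9 months and from 0.42 to 0.54 for the interaction, and within block 3 from -0.056 to 0.13 and from 0.0049 to 0.13. For age in D2-Gpnmb+ they ran from -0.19 over all libraries to 0.17 in block 3, and for nicotinamide against D2-Gpnmb+ from -0.13 in block 3 to 0.27 over all libraries. Nicotinamide against 4-month DBA/2J lies wholly in block 3 and has no block fit. No paired analysis was possible because the columns carry no numbers that the labels pair across groups.

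Limits are that only 3 untreated 9-month DBA/2J and 3 D2-Gpnmb+ libraries share block 3 with the treated and young libraries, and that the size the authors scaled by is not known.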
